A study of Mus musculus with 6 samples.

Results

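Chemokines and their receptors were examined in distal colon of mice without and with ChREBP, the carbohydrate response element binding protein encoded by Mlxipl. The members were all genes of the deposited expression table whose symbol begins with Ccl, Cxcl, Cx3c, Ccr, Cxcr or Ackr followed by a number, together with Xcl1 and Xcr1. This rule found 61 of 19844 genes, 38 of them ligands and 23 receptors. It used symbols alone and no measured value.

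There were 3 ChREBP knockout (KO) libraries and 3 wild-type (WT) libraries, each labelled as colon of a female C57BL6 mouse on day 17 of AOM/DSS treatment. All 6 mice therefore share the carcinogen azoxymethane (AOM) and dextran sulfate sodium (DSS), which injures the colon lining, and untreated colon was not analysed here. The labels give neither the age of the mice nor the deleted part of Mlxipl, nor do they say in which tissues the gene was deleted. The series asks how loss of ChREBP bears on colon carcinogenesis, and the design holds a single comparison, KO against WT.

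Chemokines are small secreted or membrane-anchored proteins that guide leukocytes along gradients through G protein-coupled receptors. One set is induced in inflammation and draws neutrophils, monocytes and effector T cells, while a homeostatic set builds lymphoid follicles and directs lymphocytes to the gut. Atypical receptors bind chemokines without G protein signalling and shape the gradients by uptake and transport. In the colon the epithelium, stromal cells, endothelium and resident leukocytes all contribute ligands.

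Expression is given as FPKM, fragments per length of transcript scaled to library depth, which allows levels of different genes to be compared per length. The step between the values of short genes placed the depth between 17975000 and 18325000 reads in KO libraries and between 17700000 and 18050000 reads in WT libraries. Fold changes are differences of log2(FPKM + 1), KO minus WT, a scale that understates changes of low genes, and SE is limma's moderated standard error. Adjusted p is limma's two-sided p after the Benjamini-Hochberg step across all 13247 tested genes, and each tested chemokine or receptor gene had the same value, 0.9995.

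The libraries were checked before the chemokine genes were read. Mlxipl, the targeted gene, read 3.40, 5.66 and 5.04 FPKM in KO replicates 1 to 3. In WT replicates 1 to 3 it read 5.84, 7.49 and 7.27 FPKM. Its transcript was still present in KO. Each KO value lay below each WT value, though KO replicate 2 and WT replicate 1 were close. The same held for 4.14% of all tested genes, in which KO lay wholly below WT. The fold change of Mlxipl was -0.48 (SE 0.18), with an unadjusted limma p of 0.0258 and a limma adjusted p of 0.9995. A lower Mlxipl transcript in KO was therefore not established by the adjusted test. The summed FPKM of 10 colon epithelial markers lay between 4864.48 and 5726.39 in KO and between 4656.65 and 5439.97 in WT, whereas the small intestinal lactase gene Lct was at 0.03 FPKM or less in every library. The Y-linked gene Ddx3y read between 9.51 and 10.18 FPKM in KO and between 10.78 and 12.11 FPKM in WT, and Xist between 0.02 and 0.04 in KO and between 0.02 and 0.03 in WT, which goes against the female label in all 6 libraries. The summed FPKM of 9 B cell markers was 25.11 in WT replicate 3 and between 64.02 and 138.46 in the other libraries. In these bulk samples fewer cells of a type cannot be told apart from less RNA per cell.

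The colon expressed most of the family at low levels, and a few ligands carried most of the signal. Over the 6 libraries 4 members averaged 50 FPKM or more, all ligands, a further 6 averaged between 10 and 50, 7 between 5 and 10, 23 between 1 and 5, and 21 below 1. The ligands Ccl6, Ccl21a, Ccl28, Cx3cl1 and Cxcl12 together made up 76.7%, 76.5% and 78.2% of the summed ligand FPKM in KO replicates 1 to 3 and 78.2%, 74.1% and 82.4% in WT replicates 1 to 3. The summed ligand FPKM was 593 ± 76.2 in KO and 594 ± 8.93 in WT (mean ± SD, n = 3 each), and the summed receptor FPKM 56.8 ± 1.06 in KO and 61.3 ± 6.0 in WT. Receptors were low, and Cxcr4 was the sole receptor with a mean above 10 FPKM. The plot of levels by gene shows this order.

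**Figure D1:**
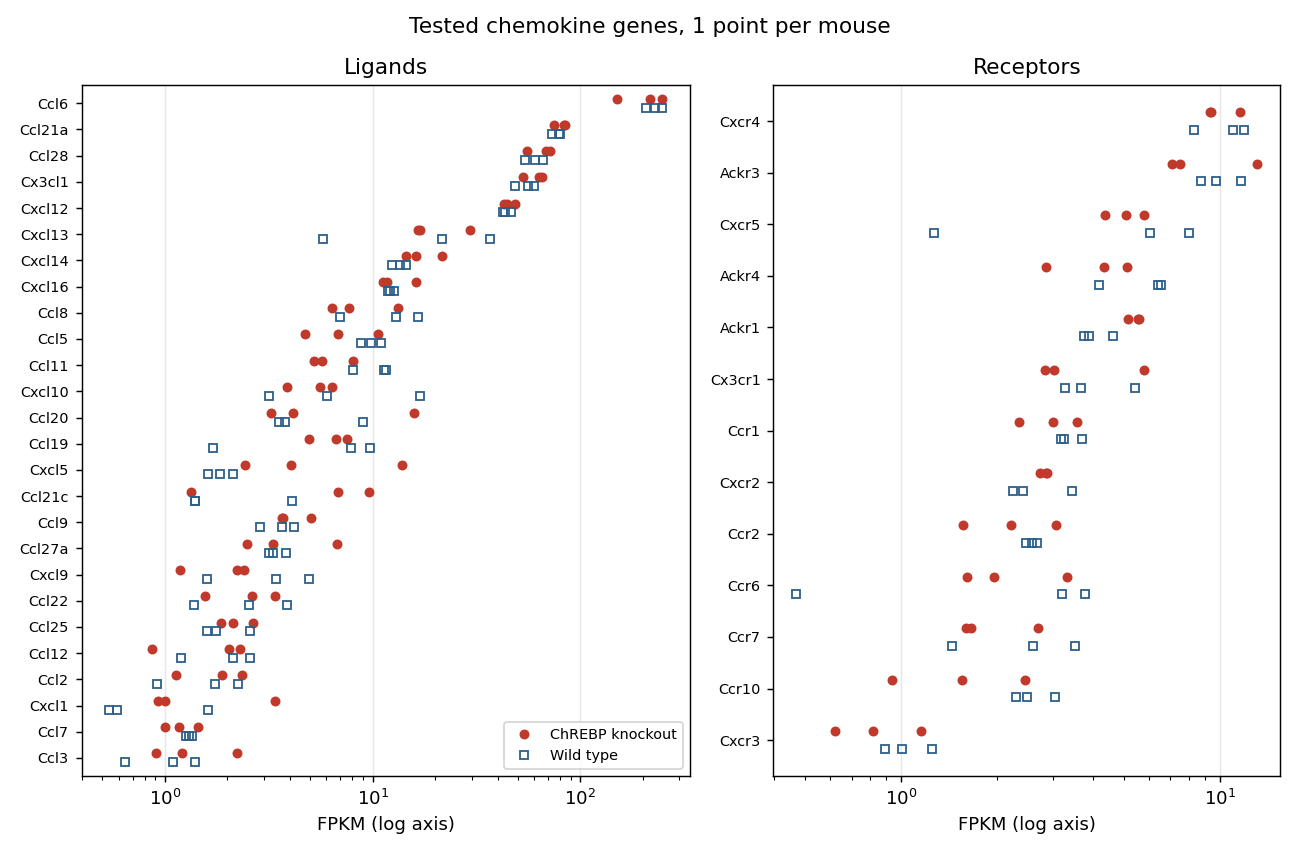
FPKM of ligands and receptors that passed the filter of 1 FPKM in at least 3 libraries, on a log axis, with filled circles for the 3 ChREBP knockout mice above open squares for the 3 wild-type mice. Ccl6 lies highest among ligands and Cxcr4 among receptors, and the points of Cxcl5, Ackr1 and Cxcl14 do not overlap between the groups.

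Of the 61 members 40 reached 1 FPKM in at least 3 libraries and were tested. None passed the adjusted threshold of 0.05, where limma called 2 of 13247 genes (0.0151%), and neither of these was a chemokine gene. At an unadjusted p under 0.05 limma gave 3 of 40 members (Ccl11, Ackr1 and Cxcl5), against a background of 3.40% of all tested genes. The 3 KO values lay wholly above the 3 WT values in 3 of 40 members (Cxcl5, Ackr1 and Cxcl14) and wholly below them in 0, against 4.53% and 4.14% of all tested genes, and without overlap in either direction the share of all tested genes was 8.67%. Of the tested members 21 had fold changes above 0 and 19 below it, and their median was 0.05 beside 0.01 for all tested genes. Ligands had 17 positive and 9 negative fold changes, and receptors 4 positive and 10 negative. Among all tested genes 52.7% of fold changes were positive, and the split between ligands and receptors was not tested.

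At the median, tested chemokine genes varied more between libraries than all tested genes did. The genes compared were not matched for expression level, and some members varied little, as Cxcl12 and Ccl21a did with a within-group SD of 0.08 each. The median within-group SD on the log2(FPKM + 1) scale was 0.34 for the 40 tested members and 0.16 for all 13247 tested genes, and the range over the 6 libraries passed 1 on that scale in 42.5% of members and 6.3% of all tested genes. Among the tested members 17 were highest in KO replicate 2 (42.5%, against 25.8% of all tested genes) and 12 in WT replicate 2 (30.0%, against 12.1%). KO replicate 3 was the lowest library for 12 members (30.0%, against 15.8% of all tested genes) and WT replicate 3 for 11 (27.5%, against 22.4%). KO replicate 2 also had the highest summed FPKM over all genes, 478500, with 439107 and 442262 in the other KO libraries and between 443159 and 447327 in WT, and the part of this total in the members' order was not tested. For 28 of 40 members both ends of the 95% interval were smaller than a 2-fold change of FPKM + 1, and for the other 12 the interval reached beyond it. The plot of fold changes gives these intervals.

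**Figure D2:**
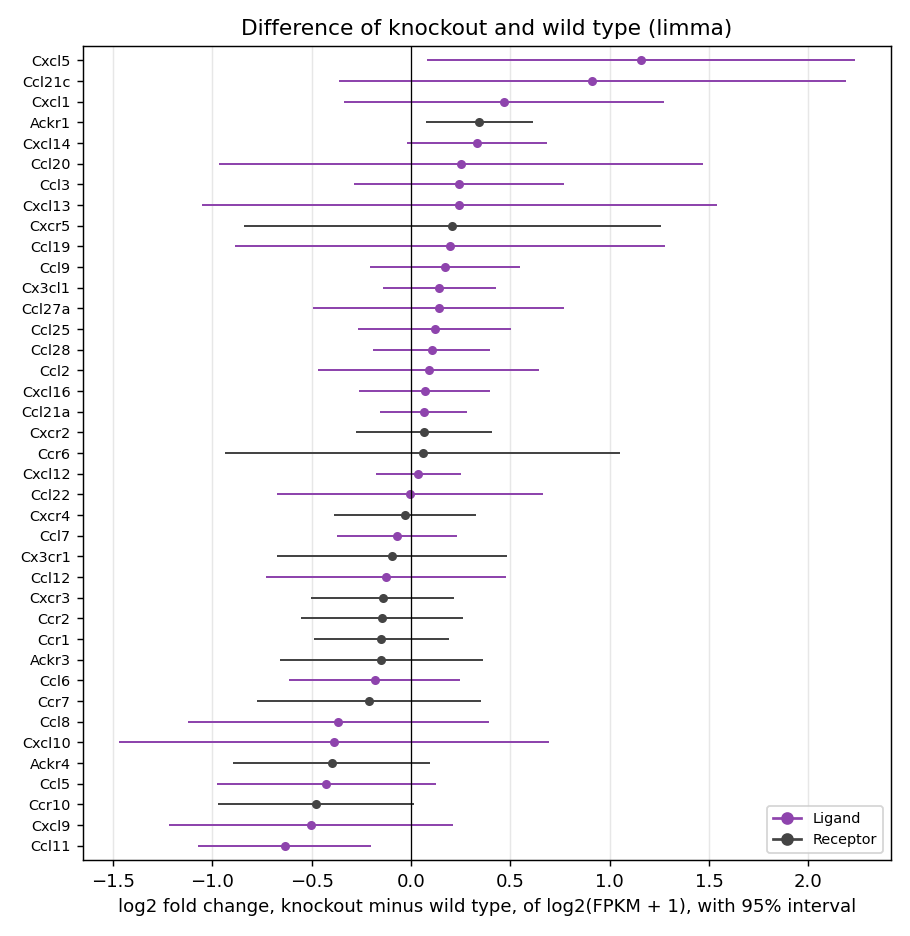
Fold change of tested members, KO minus WT on the log2(FPKM + 1) scale, as points with 95% intervals from limma, ligands in purple and receptors in grey. The intervals of Cxcl5, Ackr1 and Ccl11 do not include 0, and none of these genes passed the adjusted threshold.

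The neutrophil-attracting ligands, CXC chemokines with an ELR motif that act through Cxcr2, held the largest fold change among the tested members. Cxcl5, made mainly by epithelial cells, read 13.83, 4.05 and 2.43 FPKM in KO replicates 1 to 3 and 2.12, 1.84 and 1.62 FPKM in WT replicates 1 to 3. KO replicate 1 stood far above the rest, and the groups did not overlap, although KO replicate 3 and WT replicate 1 were close. The fold change of Cxcl5 was 1.16 (SE 0.46, 95% interval 0.08 to 2.23), and without KO replicate 1 it was 0.54. Its unadjusted limma p was 0.0378, and it stayed under 0.05 without KO replicate 1 or KO replicate 3. It did not stay under 0.05 with no filter, with array weights, without KO replicate 2 or without any single WT library. By the value of 1 read, Cxcl5 rested on about 390, 112 and 67 reads in KO and about 59, 50 and 44 reads in WT.

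Cxcl3, Cxcl1 and Cxcl2 lie in the same gene cluster as Cxcl5 and were low. Cxcl3 read 0.57, 0.18 and 0.14 FPKM in KO and 0.06, 0.00 and 0.06 FPKM in WT, about 10, 3 and 2 reads in KO against about 1, 0 and 1 in WT, and was too low to be tested. KO replicate 1 was highest for Cxcl3 as it was for Cxcl5, and so it was for the platelet chemokine gene Ppbp, which stands next to Cxcl5 in the RefSeq gene order, at 0.51, 0.21 and 0.15 FPKM in KO and 0.05, 0.11 and 0.21 FPKM in WT. Cxcl1 read 0.93, 3.39 and 1.0 FPKM in KO and 0.59, 0.54 and 1.62 FPKM in WT, a fold change of 0.47 (SE 0.35). Here KO replicate 2 was highest, WT replicate 3 second, and the groups overlapped. Cxcl2 read 0.75, 1.52 and 0.13 FPKM in KO and 0.42, 0.38 and 0.53 FPKM in WT. The receptor Cxcr2, carried by neutrophils, was at 2.82 ± 0.0737 FPKM in KO and 2.69 ± 0.644 in WT, while Cxcr1 and the ligand Cxcl15 stayed at 0.12 FPKM or less in each library.

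Neutrophil markers were read beside these ligands. Of the 8 listed markers 7 matched a gene, and 1 of these, Ly6g, gave most of the sum with 182.61, 217.33 and 166.62 FPKM in KO and 232.83, 171.22 and 165.07 FPKM in WT. The other 6 markers summed to 15.8, 5.67 and 3.48 FPKM in KO and 3.47, 3.93 and 4.46 FPKM in WT, with the mature neutrophil gene Retnlg at 0 in 4 libraries. The sum without Ly6g was chosen after the values were seen. KO replicate 1 was highest in that sum as it was in Cxcl5. The neutrophil calprotectin genes S100a8 and S100a9, at 6.04 and 6.55 FPKM there, gave most of it. Csf3r, another of the 6, had a different order, with 2.51, 2.58 and 1.06 FPKM in KO and 1.60, 1.77 and 1.93 FPKM in WT. KO replicate 1 was also highest in the sum of 5 mast cell markers, of which Mcpt1 was the most abundant, at 25.1, 13.3 and 1.37 FPKM in KO and 6.12, 4.01 and 10.5 FPKM in WT. The part of either marker list in the Cxcl5 values was not tested.

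Ccl20, the ligand of Ccr6 made by epithelium over lymphoid follicles and by inflamed epithelium, read 3.23, 15.90 and 4.16 FPKM in KO and 3.54, 3.78 and 9.04 FPKM in WT. KO replicate 2 and WT replicate 3 were the highest libraries for Ccl20, as they were for Cxcl1, and the other 4 lay between 3.23 and 4.16. Its fold change was 0.25 (SE 0.52), and without KO replicate 2 it was -0.37. The plot of neutrophil-attracting ligands and Ccl20 shows these libraries side by side.

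**Figure D3:**
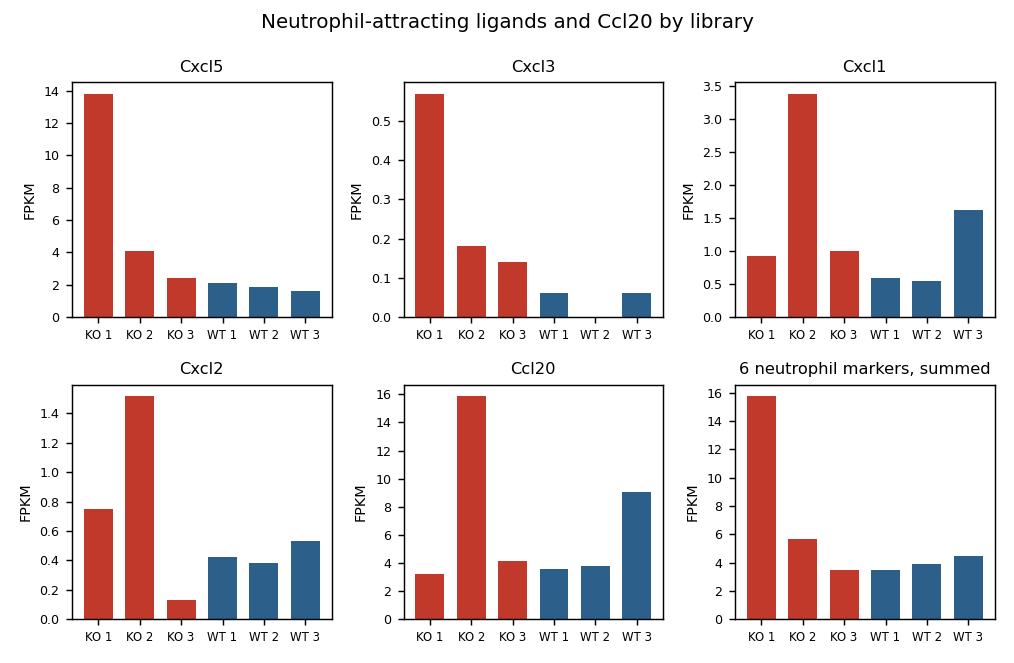
FPKM of Cxcl5, Cxcl3, Cxcl1, Cxcl2, Ccl20 and the sum of 6 neutrophil markers without Ly6g, as 1 bar per library from 0, KO in red and WT in blue. KO replicate 1 is highest for Cxcl5, Cxcl3 and the marker sum, and KO replicate 2 for Cxcl1, Cxcl2 and Ccl20.

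Promoter windows are shown for Cxcl1 and Ccl20, both highest in KO replicate 2 and WT replicate 3. They come from RefSeq (GRCm38.p6, 250 bases before to 50 bases after the gene start). These libraries were also the highest for other members. Among those, Ccl2, Ccl6, Ccl8, Ccl12, Ccl25, Ccr2, Cx3cr1 and Cxcl16 are not among the genes with a kappaB match named below. Ccl9, Ccl27a and Ccr1 are. A link between the element and this order of libraries was not tested. Capitals mark matches to the kappaB consensus, the DNA element of NF-kappaB, searched on both strands, and overlapping matches form 1 run. The Cxcl1 window is chr5:90890995-90891294 on the plus strand and the Ccl20 window chr1:83116516-83116815 on the plus strand.
Cxcl1: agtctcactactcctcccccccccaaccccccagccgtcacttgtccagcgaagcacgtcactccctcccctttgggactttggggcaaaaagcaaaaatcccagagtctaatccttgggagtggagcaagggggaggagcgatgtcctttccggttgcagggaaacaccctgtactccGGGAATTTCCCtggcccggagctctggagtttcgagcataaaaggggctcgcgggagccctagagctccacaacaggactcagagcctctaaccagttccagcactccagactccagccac
Ccl20: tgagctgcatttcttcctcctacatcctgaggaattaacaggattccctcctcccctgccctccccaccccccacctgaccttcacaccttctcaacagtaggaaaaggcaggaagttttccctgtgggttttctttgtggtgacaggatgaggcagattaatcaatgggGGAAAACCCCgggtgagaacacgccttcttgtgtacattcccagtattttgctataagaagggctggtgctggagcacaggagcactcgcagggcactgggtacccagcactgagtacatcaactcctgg

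The Cxcl1 match begins 71 bases before the gene start and the Ccl20 match 80 bases before it. Cxcl2 and Cxcl3 hold the same letters as Cxcl1, GGGAATTTCC, beginning 97 and 73 bases before their starts. Windows were found for 46 of the 61 members, 53 windows in all. The kappaB consensus was in 12 of these 53 windows (22.6%) and in 8.46% of all 32851 windows, and the 12 genes were Ackr2, Ccl1, Ccl20, Ccl27a, Ccl9, Ccr1, Ccr3, Ccr6, Cxcl1, Cxcl10, Cxcl2 and Cxcl3. The E-box CACGTG, the core of elements that ChREBP and its partner Mlx bind in tandem, was in 2 member windows (3.8%), those of Cxcl3 and Xcr1, and in 7.15% of all windows. The AP-1 letters TGANTCA were in 10 member windows (18.9%) and in 7.81% of all windows. These are matches of letters and say nothing of binding in these tissues.

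The interferon-inducible ligands Cxcl9, Cxcl10 and Cxcl11 draw activated T cells and NK cells through Cxcr3. Cxcl10 read 6.39, 3.86 and 5.59 FPKM in KO and 6.04, 16.99 and 3.19 FPKM in WT. WT replicate 2 alone was high, and the KO libraries lay inside the range of the WT libraries. The fold change of Cxcl10 was -0.39 (SE 0.47), and without WT replicate 2 it was 0.19. Cxcl9 was also highest in WT replicate 2, with 2.40, 2.22 and 1.19 FPKM in KO and 3.42, 4.97 and 1.59 FPKM in WT, a fold change of -0.50 (SE 0.31). Cxcl11 stayed at 0.41 FPKM or less, and Cxcr3 was at 0.867 ± 0.273 FPKM in KO and 1.05 ± 0.183 in WT. Ifng, the cytokine that induces these ligands, was at 0.10 FPKM or less in each library.

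The Cxcl10 window, chr5:92348840-92349139 on the minus strand of GRCm38.p6, is shown because it holds both kinds of element, with the interferon response element (GAAA, any 2 bases, GAAA) first and 2 runs of kappaB matches after it in capitals.
Cxcl10: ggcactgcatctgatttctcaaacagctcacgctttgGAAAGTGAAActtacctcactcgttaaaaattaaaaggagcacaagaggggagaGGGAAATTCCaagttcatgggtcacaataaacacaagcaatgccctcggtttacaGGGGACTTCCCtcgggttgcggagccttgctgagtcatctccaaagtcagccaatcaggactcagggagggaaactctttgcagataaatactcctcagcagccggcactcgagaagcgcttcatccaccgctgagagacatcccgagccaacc
The interferon response element was in 3 member windows, those of Ccl19, Cxcl10 and Cxcl14 (5.7%), and in 3.44% of all windows.

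The follicle and T zone genes differed more between libraries than between genotypes. Cxcl13, which stromal cells of follicles make to attract B cells, read 29.54, 16.88 and 16.48 FPKM in KO and 21.50, 36.65 and 5.80 FPKM in WT. Its receptor Cxcr5, carried by B cells and follicular helper T cells, read 5.78, 4.37 and 5.08 FPKM in KO and 6.04, 8.01 and 1.27 FPKM in WT. For each of these genes WT replicate 3 was lowest, WT replicate 2 was highest, and the KO libraries lay between them. The fold change was 0.24 (SE 0.56) for Cxcl13 and 0.21 (SE 0.45) for Cxcr5, and without WT replicate 3 these were -0.46 and -0.40.

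Ccl19, a T zone ligand of Ccr7, read 7.54, 4.92 and 6.70 FPKM in KO and 7.89, 9.77 and 1.71 FPKM in WT, with a fold change of 0.20 (SE 0.47) that was -0.42 without WT replicate 3. Ccr6, the Ccl20 receptor of B cells and Th17 cells, read 3.33, 1.61 and 1.96 FPKM in KO and 3.21, 3.79 and 0.47 FPKM in WT. Ccr7 itself, which brings T cells and dendritic cells into lymph nodes, read 2.70, 1.60 and 1.66 FPKM in KO and 2.6, 3.51 and 1.45 FPKM in WT. WT replicate 3 was the lowest and WT replicate 2 the highest library for these 3 genes too. Ccl21a, the lymphatic ligand of Ccr7, did not share this pattern, at 74.89, 84.43 and 83.66 FPKM in KO and 73.20, 78.94 and 79.99 FPKM in WT, a fold change of 0.06 (SE 0.09).

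B cell markers varied with the follicle genes, and their part in these values was not tested. The summed FPKM of the 9 markers, all of them matched and Cd79a the most abundant, was 93.94, 77.26 and 64.02 in KO and 94.49, 138.46 and 25.11 in WT, again lowest in WT replicate 3 and highest in WT replicate 2. Taken as a percentage of that sum, a measure chosen after these values were seen, Cxcr5 was at 6.15%, 5.66% and 7.94% in KO and 6.39%, 5.79% and 5.06% in WT. The highest and lowest library were 6.31-fold apart for Cxcr5 in FPKM and 1.57-fold apart as a share of the B cell markers. For Cxcl13 the spread was 6.32-fold in FPKM and 1.44-fold as such a share, for Ccl19 it was 5.71-fold and 1.64-fold, and for Ccr6 it was 8.06-fold and 1.89-fold. Ccr7 went the other way, with a spread of 2.42-fold in FPKM and 2.79-fold as a share, since it stood at 5.77% of the B cell markers in WT replicate 3 and between 2.07% and 2.87% in the other 5 libraries. Levels of 9 T cell markers, summed in FPKM, varied less, at 14.95, 19.91 and 12.92 in KO and 18.36, 23.35 and 17.54 in WT. Ltb, the lymphotoxin beta gene that maintains follicles, was likewise lowest in WT replicate 3 at 1.49 FPKM, with 10.04, 7.51 and 5.68 in KO and 7.68 and 11.37 in the other WT libraries. The plot of follicle and T zone genes shows the libraries together.

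**Figure D4:**
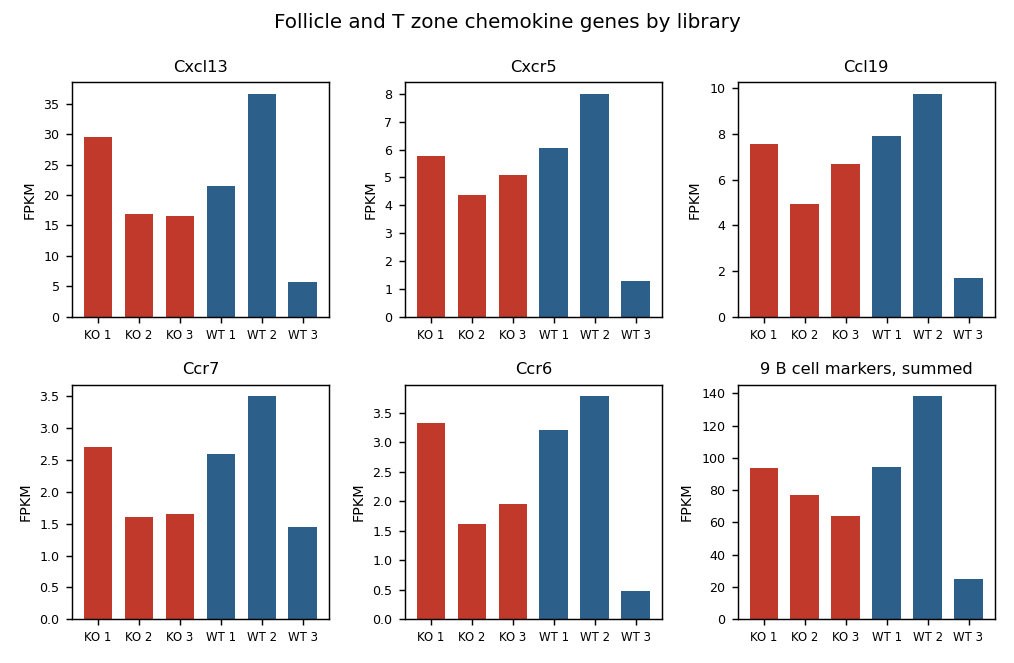
FPKM of Cxcl13, Cxcr5, Ccl19, Ccr7 and Ccr6 and the summed FPKM of 9 B cell markers, as 1 bar per library from 0, KO in red and WT in blue. WT replicate 3 is lowest and WT replicate 2 highest in each panel.

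The Ccl21 copies need care, since Ccl21a, Ccl21b and Ccl21c are near-identical copies among which reads can be split. Ccl21c read 1.34, 9.64 and 6.82 FPKM in KO and 4.09, 1.40 and 1.39 FPKM in WT, a fold change of 0.91 (SE 0.55). Without KO replicate 2 it was 0.47, and without KO replicate 1 it was 1.57. Ccl21b was listed at 0 in KO replicate 1 and in all 3 WT libraries and at 0.11 and 6.91 FPKM in KO replicates 2 and 3, and was not tested. Summed over the 3 copies the levels were 76.2, 94.2 and 97.4 FPKM in KO and 77.3, 80.3 and 81.4 FPKM in WT, so KO replicate 1 was the lowest library of all. The pair Ccl27a and Ccl27b, related copies whose protein binds Ccr10, summed to 3.58, 7.32 and 2.80 FPKM in KO and 3.40, 3.69 and 4.09 FPKM in WT.

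Among the mucosal homing genes Ccl28 was abundant and Ccr10 was low. Ccl28, the epithelial ligand that draws IgA plasma cells through Ccr10, read 55.27, 71.25 and 68.32 FPKM in KO and 60.29, 54.34 and 65.90 FPKM in WT, with overlapping groups and a fold change of 0.10 (SE 0.13), or 0.034 without WT replicate 2 and 0.21 without KO replicate 1. Ccr10 read 1.56, 2.45 and 0.94 FPKM in KO and 2.49, 2.29 and 3.04 FPKM in WT, a fold change of -0.48 (SE 0.21, 95% interval -0.97 to 0.01). KO replicates 1 and 3 lay below all WT libraries, and KO replicate 2 lay among them; without KO replicate 3 the fold change was -0.27. Ccl25, the small intestinal ligand of Ccr9, was at 2.22 ± 0.402 FPKM in KO and 1.98 ± 0.518 in WT, and Ccr9 stayed at 0.56 FPKM or less.

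Plasma cell markers varied with Ccr10, and their part in its values was not tested. Their summed FPKM, over 5 of 5 listed genes with Jchain the most abundant, was 279, 459 and 184 in KO and 413, 383 and 460 in WT, lowest in KO replicates 3 and 1 as Ccr10 was. Jchain, the joining chain of polymeric IgA, read 173.31, 361.40 and 110.51 FPKM in KO and 305.03, 286.17 and 343.16 FPKM in WT. As a percentage of Jchain, a measure also chosen after the values were seen, Ccr10 was at 0.900%, 0.678% and 0.851% in KO and 0.816%, 0.800% and 0.886% in WT, so the groups overlapped, and the spread between libraries was 1.33-fold against 3.23-fold in FPKM. As a percentage of all 5 plasma cell markers Ccr10 was at 0.560%, 0.534% and 0.510% in KO and 0.603%, 0.597% and 0.660% in WT, and on that measure the groups did not overlap. That sum includes Sdc1, which did not follow Jchain, at 87.28, 70.45 and 65.17 FPKM in KO and 78.74, 74.20 and 87.65 FPKM in WT. The 2 measures thus differ on overlap, and the part of Sdc1 in this was not tested.

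The gene with the smallest unadjusted p among the tested members was Ccl11, or eotaxin-1, a stromal ligand of Ccr3 that attracts eosinophils. It read 8.08, 5.21 and 5.68 FPKM in KO and 11.62, 11.32 and 8.07 FPKM in WT. The highest KO library and the lowest WT library were 8.08 and 8.07, so the groups touched, and the other KO libraries lay below every WT library. The fold change was -0.63 (SE 0.19, 95% interval -1.07 to -0.20), with an unadjusted limma p of 0.00941, and it did not pass over all genes (limma adjusted p = 0.9995). The KO mean was 6.32 ± 1.54 FPKM and the WT mean 10.3 ± 1.97 FPKM. Ccl11 rested on about 155, 98 and 107 reads in KO and about 219, 210 and 149 in WT.

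Other parts of the eosinophil axis were near the floor. Ccl24, or eotaxin-2, read 0.31 FPKM or less, and Ccr3 was listed at 0 in 5 libraries and at 0.03 FPKM in WT replicate 3, about 2 reads. Of the eosinophil markers the peroxidase gene Epx was listed at 0 in all but 1 library, and the 5 markers summed to between 0.64 and 2.49 FPKM in KO and between 1.46 and 1.70 FPKM in WT. For 6 fibroblast markers the sum in FPKM was 702, 630 and 669 in KO and 611, 576 and 729 in WT, higher in 3 of 3 KO libraries than in 2 of the WT libraries. The neighbours of Ccl11 in its gene cluster did not share its order of libraries, as the next paragraph shows.

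The monocyte-attracting ligands Ccl2, Ccl7, Ccl8 and Ccl12 act on Ccr2 or related receptors and stand beside Ccl11 in the gene order. Ccl8, the most abundant of them, read 6.37, 13.30 and 7.72 FPKM in KO and 13.04, 7.01 and 16.48 FPKM in WT, with a fold change of -0.37 (SE 0.33), and the groups overlapped. Ccl2, Ccl7 and Ccl12 together summed to 5.09, 6.12 and 3.00 FPKM in KO and 3.43, 5.23 and 6.08 FPKM in WT. KO replicate 2 and WT replicate 3 were the highest libraries for that sum. Ccr2, the receptor of inflammatory monocytes, was at 2.28 ± 0.747 FPKM in KO and 2.57 ± 0.10 in WT.

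Macrophage markers followed a like order. The 9 markers, all matched and Lyz2 the most abundant, summed to 280, 501 and 307 FPKM in KO and 328, 371 and 468 FPKM in WT, again highest in KO replicate 2 and WT replicate 3. Their part in the Ccl8 and Ccl2 values was not tested.

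The macrophage inflammatory group held the most abundant chemokine of the tissue. Ccl6, a mouse ligand of Ccr1 that myeloid cells can make, read 217.15, 248.12 and 149.70 FPKM in KO and 229.79, 207.26 and 248.46 FPKM in WT. Which cells of this tissue made Ccl6 was not tested. KO replicate 3 was the lowest library and the others overlapped, with a fold change of -0.18 (SE 0.18) that was 0.026 without KO replicate 3. Ccl6 alone was 37.5%, 36.8% and 28.6% of the summed ligand FPKM in KO and 39.2%, 35.0% and 41.1% in WT. Ccl9, its neighbour and another Ccr1 ligand of the mouse, was far lower, at 4.15 ± 0.803 FPKM in KO and 3.57 ± 0.662 in WT.

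Ccl5, or RANTES, made by T cells and NK cells, read 4.75, 10.66 and 6.84 FPKM in KO and 9.84, 10.96 and 8.84 FPKM in WT. KO replicates 1 and 3 lay below all WT libraries and KO replicate 2 among them, and the fold change was -0.43 (SE 0.24). Without KO replicate 1 it was -0.18, and without KO replicate 2 it was -0.69. For 7 cytotoxic and NK cell markers the sum in FPKM was 3.97, 4.78 and 1.88 in KO and 3.94, 4.43 and 3.10 in WT, and its part in Ccl5 was not tested.

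Ccl3 and Ccl4, the macrophage inflammatory proteins 1 alpha and beta, were low. Ccl3 read 0.91, 2.22 and 1.21 FPKM in KO and 0.64, 1.39 and 1.09 FPKM in WT, with overlapping groups. Ccl4 read 0.59, 0.78 and 0.34 FPKM in KO and 0.26, 0.18 and 0.09 FPKM in WT, about 7, 9 and 4 reads in KO against about 3, 2 and 1 in WT. The groups of Ccl4 did not overlap, but it was below the filter and was not tested with the other members. Ccr1 was at 2.97 ± 0.616 FPKM in KO and 3.37 ± 0.276 in WT.

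Of the stromal and membrane-anchored ligands, Cxcl12 and Cx3cl1 were the most abundant. Cxcl12, the stromal ligand that retains cells through Cxcr4, read 44.47, 48.43 and 43.12 FPKM in KO and 46.58, 42.60 and 43.34 FPKM in WT, so that the fold change was 0.04 (SE 0.09, 95% interval -0.17 to 0.24). Cxcr4 read 11.62, 9.32 and 9.38 FPKM in KO and 10.99, 11.92 and 8.28 FPKM in WT. Both genes had overlapping groups, and their highest and lowest libraries were 1.14-fold apart for Cxcl12 and 1.44-fold apart for Cxcr4. Cxcl14, an epithelial and stromal chemokine, read 16.10, 21.65 and 14.48 FPKM in KO and 14.44, 13.51 and 12.40 FPKM in WT. The lowest KO library exceeded the highest WT library by less than the spread within either group, and the fold change was 0.33 (SE 0.15, 95% interval -0.02 to 0.68), or 0.17 without KO replicate 2.

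Cx3cl1, or fractalkine, tethers and draws Cx3cr1-bearing macrophages from the cell surface. It read 52.92, 63.60 and 65.23 FPKM in KO and 48.23, 56.07 and 59.98 FPKM in WT, a fold change of 0.14 (SE 0.12) with overlapping groups, or 0.056 without WT replicate 1 and 0.24 without KO replicate 1. Cx3cr1 read 3.03, 5.81 and 2.84 FPKM in KO and 3.67, 3.28 and 5.43 FPKM in WT, highest in KO replicate 2 and WT replicate 3 as the macrophage markers were. Cxcl16, the membrane-bound ligand of Cxcr6, read 11.69, 16.10 and 11.26 FPKM in KO and 11.85, 12.13 and 12.66 FPKM in WT, and Cxcr6, a receptor of tissue-resident T cells, stayed at 0.91 FPKM or less.

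The atypical receptors had fold changes of either sign. Ackr1, carried by venules and red blood cells and able to move inflammatory chemokines across endothelium, read 5.55, 5.60 and 5.16 FPKM in KO and 4.62, 3.75 and 3.88 FPKM in WT. The groups did not overlap, and the fold change was 0.34 (SE 0.11, 95% interval 0.08 to 0.61) with an unadjusted limma p of 0.0176 and a limma adjusted p of 0.9995. Ackr4, which takes up Ccl19, Ccl21 and Ccl25, read 2.86, 4.34 and 5.11 FPKM in KO and 4.17, 6.42 and 6.54 FPKM in WT, with overlapping groups and a fold change of -0.40 (SE 0.21). Without KO replicate 1 the Ackr4 value was -0.21.

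Ackr3, the scavenger of Cxcl12, read 7.09, 7.49 and 13.14 FPKM in KO and 8.76, 9.72 and 11.68 FPKM in WT, a fold change of -0.15 (SE 0.22) that was -0.41 without KO replicate 3. Ackr2, which removes inflammatory CC chemokines, stayed between 0.65 and 1.11 FPKM. Endothelial and red blood cell markers were read beside Ackr1. The summed FPKM of 5 blood endothelial markers was 47.6, 35.2 and 43.3 in KO and 40.9, 41.3 and 43.2 in WT, and that of 5 red blood cell markers 109, 119 and 70.5 in KO and 57.1, 80.4 and 141 in WT. These sums overlapped between the groups, and the part of either marker list in the Ackr1 values was not tested. The plot of the genes with the smallest p shows Ackr1, Ackr4, Ccl11, Cxcl14 and Ccr10 by library.

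**Figure D5:**
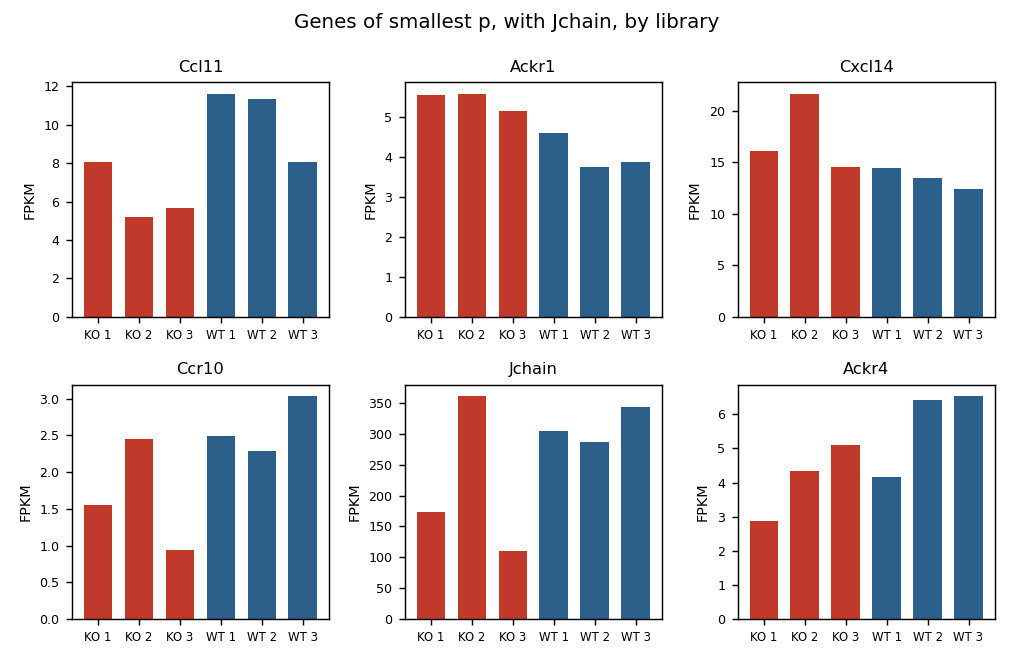
FPKM of Ccl11, Ackr1, Cxcl14, Ccr10, the plasma cell gene Jchain and Ackr4, as 1 bar per library from 0, KO in red and WT in blue. Ackr1 is higher in each KO library than in any WT library, Ccl11 touches at 8.08 and 8.07 FPKM, and Ccr10 and Jchain are lowest in KO replicate 3.

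The T cell ligands Ccl22, Ccl17 and Ccl1 were low, as were their receptors. Ccl22, a dendritic cell ligand of Ccr4, was at 2.52 ± 0.915 FPKM in KO and 2.6 ± 1.25 in WT, and its groups overlapped. Ccl17, the other Ccr4 ligand, read 0.96, 0.66 and 0.65 FPKM in KO and 1.08, 0.67 and 0.00 FPKM in WT. These values are near the floor, about 8, 6 and 6 reads in KO and about 9, 6 and 0 in WT. Xcl1, or lymphotactin, read between 0.23 and 1.33 FPKM, and its dendritic cell receptor Xcr1 between 0.21 and 0.68. Of the 21 members below the filter 16 stayed under 1 FPKM in each library and 9 were listed at 0 in at least 1, and Ccr3, Cxcr1 and Ccr1l1 were the lowest, at 0.08 FPKM or less.

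Genes around the chemokine system were examined from lists that hold no member. Of 33 tested genes that signal downstream of chemokine receptors 0 passed the adjusted threshold in limma, with 17 fold changes above 0 and 16 below it and their median at 0.00. At an unadjusted limma p under 0.05 there was 1 of 33, against 3.40% of all tested genes. That 1 gene was Rgs2, a regulator of G protein signalling, at 8.46, 9.14 and 9.29 FPKM in KO and 6.56, 7.38 and 6.6 FPKM in WT, with a fold change of 0.35 (SE 0.10). The groups did not overlap for Rgs2, nor for Gnb2 and Grk5, which were higher in KO, and Vav1, which was lower. Of all tested genes 8.67% were without overlap. The inhibitory G protein gene Gnai2, through which most chemokine receptors signal, was at 225 ± 8.92 FPKM in KO and 211 ± 6.80 in WT. Of 7 tested chemoattractants and receptors with other names 0 passed in limma and 0 had an unadjusted p under 0.05, 3 with positive and 4 with negative fold changes.

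Among 12 cytokines that induce chemokines 4 were high enough to be tested, and 0 passed the adjusted threshold in limma. Tnf read 4.19, 6.07 and 2.56 FPKM in KO and 2.70, 1.87 and 1.92 FPKM in WT, with a fold change of 0.69 (SE 0.24) and an unadjusted limma p of 0.0222. KO replicate 3 and WT replicate 1 overlapped for Tnf, and KO replicate 2 was the highest library, as it was for Cxcl1, Cxcl2 and Ccl20. Il1b read 2.21, 1.47 and 0.75 FPKM in KO and 1.5, 1.41 and 3.32 FPKM in WT, so its order was another one. Il6 was listed at 0 in 5 libraries, and Il17a was at 0.05, 0.10 and 0.10 FPKM in KO and listed at 0 in all 3 WT libraries. These values are near the floor, and neither gene was high enough to be tested. Il17f and Il22, also untested, stayed at 0.29 and 0.48 FPKM or less, and their groups overlapped.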

How the data were processed

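Poly-A RNA of distal colon from 6 mice was sequenced per the labels, and the authors deposited 1 table of FPKM values per gene and library. Per the submitters' processing notes the tools were HISAT2 and RSEM and the build mm39. The sources used here give no versions, filters or later scaling and do not state strand, so antisense overlap cannot be resolved. Replicates are labelled as separate samples.

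The test was limma 3.58.1 (R 4.3.3) on log2(FPKM + 1), with a trended prior and genotype in the model. It kept the 13247 genes that reached 1 FPKM in 3 or more libraries, and Benjamini-Hochberg values under 0.05 counted as passing. The fit was tested on simulated data. Depth was estimated from 383 non-coding genes of up to 150 bases. With a length offset of 36 bases, between 84.0% and 89.8% of their low values per library lay within 0.05 of a whole number of reads. Read numbers of members are estimates from that depth and GENCODE transcript lengths, cover counting error only, and were made for 49 members of 1 transcript. Of 43 low member values estimated at under 6 reads, 23 lay within 0.1 of a whole number. Small read numbers of members are therefore approximate.

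Values per library are given for tested members with a mean of at least 5 FPKM and for the 8 of smallest p. A tested receptor is counted but not reported here by name. Genes named with values outside that rule were chosen after their values were seen. Members, lists and measures were chosen with earlier results of these data known. Alternatives changed the pseudocount, filter, scaling, model of the spread and libraries used. Promoter windows came from RefSeq GRCm38.p6, a build other than the authors', matched by gene number. Python 3.11.15 (pandas 2.3.3) and matplotlib 3.10.9 made sums and plots.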

Additional observations from a re-analysis of the deposited data

How the results depend on the processing

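No chemokine or receptor gene passed the adjusted threshold under any of the 19 alternatives run with limma, and between 2 and 6 had an unadjusted p under 0.05 where the share of all genes lay between 2.4% and 6.1%. Without KO replicate 1 and WT replicate 3 together, an alternative chosen after seeing the data, 11 of 41 members and 8.35% of all genes had such a p. For Ccl11 the limma adjusted p lay between 0.0997, with those 2 libraries left out, and 0.9999. Over all genes limma called 2, against 4 with a filter of 0.5 FPKM in 3 libraries, 0 with 1 FPKM in all 6 libraries, 0 with the replicate block and 0 when any single library was left out; the cause was not tested. Of the members 21 of 40 had positive fold changes, 32 of 61 with no filter, which adds members, and between 16 and 27 when 1 library was left out. With array weights the fold changes of Cxcl13, Ccl19, Cxcr5 and Ackr3 turned to -0.24, -0.15, -0.15 and 0.053. Without KO replicate 1 and WT replicate 3 those of Cxcl13, Ccl19, Cxcr5, Ccl8 and Ackr3 turned to -0.72, -0.54, -0.48, 0.0745 and 0.10. Leaving out 1 library, or those 2 together, moved Cxcl13 between -0.72 and 0.78, Ccl19 between -0.54 and 0.57, Cxcr5 between -0.48 and 0.60, Ccl20 between -0.37 and 1.0, Cxcl10 between -0.99 and 0.19, Ccl8 between -0.69 and 0.0745, Ackr3 between -0.41 and 0.10, Ccl6 between -0.34 and 0.026, Cxcl16 between -0.083 and 0.16, Cxcr4 between -0.27 and 0.068 and Cxcl12 between -0.011 and 0.074. Of the 19 alternatives 6 leave each fold change as it was by construction; under the other 13, of 286 recomputed fold changes of named members 22 turned in direction. Deviations of same-numbered KO and WT libraries correlated at 0.27, -0.10 and 0.06 over genes, and those of other KO and WT pairs between -0.289 and 0.253. Whether the numbers pair the samples cannot be told from these values, since the groups are small. The replicate block changed no call among the members. With 3 mice a group, the median half-width of the 95% interval was 0.51 on the log2(FPKM + 1) scale for members.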
